A study of Mus musculus with 9 samples.

Results

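This account describes the transcriptome of the 3 control libraries in a set of 9, as the levels and ranks of 22399 genes within that group. The libraries were chosen by their label alone: basal cells of the epidermis between hair follicles, taken from the plantar skin (the sole of the foot) of wild-type C57BL/6 mice that were 5 months old and ate a normal diet. The other 6 libraries came from mice on a high-fat diet or of 24 months of age and are not used here. Skin was digested with trypsin and cells were sorted as CD49f positive and CD34 negative. CD49f is the integrin alpha 6 chain, which basal cells carry on their attached face, and CD34 marks stem cells of the hair follicle bulge. No further surface marker is named for the gate, and the labels do not say whether the 3 libraries came from separate mice, so every SD given here measures the spread between libraries, which may be technical.

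Basal keratinocytes sit on the basement membrane, divide, and send daughter cells upward into the spinous, granular and cornified layers. They are held to the membrane by hemidesmosomes, built on integrin alpha 6 beta 4 and collagen XVII, and to each other by desmosomes and adherens junctions. Their cytoskeleton is made of keratin 5 paired with keratin 14, which cells replace with keratins 1 and 10 as they leave the basal layer. The transcription factor p63, encoded by Trp63, maintains the epidermal lineage. Sole skin bears no hair, is thickened, and carries sweat glands.

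Levels are the deposited FPKM, which divides a gene's fragments by its length and by the depth of the library, so genes can be compared within a library. Where 3 values are given in order, they belong to control replicates 1, 2 and 3, and ± gives the SD over the 3. From the size of a single read among low genes, scaling depth was estimated at 32.5, 24.1 and 31.2 M reads (M for 1e6). The reads estimated from it summed over genes to 31.5, 23.5 and 31.3 M. Spearman's rho between pairs of libraries was 0.987 to 0.989 over the 10333 genes that averaged 1 FPKM or more. With a single group there is no contrast, and an exact sign-flip permutation test over 3 libraries cannot give a two-sided p below 0.25, so levels are described without a test.

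The 4 markers of the label were present in each library. Krt14 stood at rank 1 of all genes with 11012, 11203 and 14192 FPKM (chr11:100203162-100207548 on GRCm38, minus strand), and Krt5 at rank 2 with 10494, 10316 and 13585 FPKM (chr15:101707070-101712898, minus strand). Itga6, the sorted antigen, was at 134, 130 and 137 FPKM (rank 267, chr2:71745616-71858416). Trp63 was at 97.7, 89.9 and 94.0 FPKM (rank 393, chr16:25683763-25892102). Cd34, the antigen sorted against, was at 0 in control replicates 1 and 2 and at 0.00439 FPKM, 1 read, in control replicate 3. All 12 genes of a basal keratinocyte list were at 1 FPKM or more in every library, against 10032 of all 22399 genes. The summed level of the list was 24169 to 30966 FPKM.

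Promoter sequence is shown first because several highly expressed genes of this tissue hold the letters TATAA of a TATA box. Krt5 does not hold these exact letters, and the choice of libraries did not use the feature. A TATA box is a short A and T rich element, bound by the TATA-binding protein, that lies just upstream of the start in a minority of genes. The letters TATAA were searched on the gene's strand, starting 40 to 20 bases before the start, in RefSeq promoters of GRCm38.p6. The windows below hold the 60 bases before the start of Krt5, which has no match, and of 5 genes chosen because they have one, and capitals mark TATAA. The windows of Col17a1, Lgals7, Calm4, Mt2 and Apoe, which are not printed, held no match. However, the RefSeq start lay 533 bases inside the GENCODE gene for Lgals7 and 52 for Col17a1, and 46 bases before it for Mt2. Apoe has entries with starts 0, 567 and 790 bases inside.
Krt5, chr15:101712906-101712965, minus strand: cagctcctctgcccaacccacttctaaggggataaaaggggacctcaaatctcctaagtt
Krt10, chr11:99389365-99389424, minus strand: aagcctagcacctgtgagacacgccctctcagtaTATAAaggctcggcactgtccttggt
Krt2, chr15:101818170-101818229, minus strand: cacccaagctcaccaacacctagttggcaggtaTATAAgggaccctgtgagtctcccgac
Krt24, chr11:99285263-99285322, minus strand: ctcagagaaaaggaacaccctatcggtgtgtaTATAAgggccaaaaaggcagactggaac
Krtdap, chr7:30787845-30787904, plus strand: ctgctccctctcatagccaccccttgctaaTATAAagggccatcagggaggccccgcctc
Aqp3, chr4:41098184-41098243, minus strand: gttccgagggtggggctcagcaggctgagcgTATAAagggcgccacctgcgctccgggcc

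The matches began 26 bases before the start in Krt10, 27 in Krt2, 28 in Krt24, 29 in Aqp3 and 30 in Krtdap. The exact letters did not occur in that window of Krt5. It does hold gataaaa, an A and T rich run that the search did not count, so no match is not the absence of a TATA-like element. For Krt14 the RefSeq start lay 1518 bases inside the GENCODE gene, so its window is not shown. Of 8 keratins with a promoter in the table and at 1 FPKM or more in all 3 libraries, 5 held the match (62.5%), and so did 11 of 25 keratins under 1 FPKM (44.0%). The match was therefore common to keratins at either level. Over all 16770 genes matched to a promoter, counted in the same way, 842 held it (5.02%), and over all 32851 promoter entries 3.52% did.

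Across all genes with a promoter in the table, the share with a match was high at both ends of the ranking and low between them. Among the 100 genes with the highest mean FPKM, 12 of 68 with a promoter held it (17.6%), against 2.33% of 8104 genes at 1 FPKM or more in all 3 libraries. Among 5188 genes listed at 0 in all 3, 9.0% held it. Where only genes whose RefSeq start lay within 50 bases of the GENCODE start were kept, the shares were 20% of 45, 1.86% of 5642 and 11.4% of 3081. The median ratio of observed to predicted CpG over the 300 bases around the start was 0.786 in the detected genes, 0.193 in genes listed at 0 and 0.253 in the 8 detected keratins. A match is a description of the letters and not of binding.

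The transcriptome was led by keratins and by the protein synthesis machinery. Of 22399 genes, 10032 were at 1 FPKM or more in all 3 libraries, 361 averaged 100 FPKM or more, and 27 averaged 1000 FPKM or more. Krt14 alone held 4.01 ± 0.49% of summed FPKM, and Krt14 with Krt5 held 7.80 ± 1.0%. The first 10 genes held 15.3 ± 0.62% and the first 100 held 36.2 ± 0.37%. Between 312 and 340 genes made up 50% of the sum in each library.

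By class, the keratins as a family held 10.6 ± 0.72% of summed FPKM, ribosomal proteins 13.9 ± 0.35% and the listed mitochondrial genes 2.75 ± 0.34%. Ribosomal protein genes filled 11 of the first 30 places and 45 of the first 100, and 83 of their 86 rows were at 1 FPKM or more in all 3 libraries. Rplp1, a stalk protein of the large ribosomal subunit, ranked next after Krt5 with 3950, 3874 and 4125 FPKM. Eef1a1, which brings aminoacyl-tRNA to the ribosome, followed Krt10 with 3228, 2951 and 3186 FPKM. Rps15, Rplp0, Rpl4, Eef2, Rpl8, Rps3a1, Rpl36, Rpl32, Rpl19 and Rps4x were also of this class and among the first 30, at means of 987 to 2084 FPKM. Many have processed pseudogenes: the share of their 50-base stretches that also occurs in transcripts of other genes was 60% for Rplp1 and 81.1% for Rpl36, so their levels depend on how the authors' counting treated such reads. The mitochondrial share has the same limit, since mt-Co1 shares 51.1% of its stretches and mt-Co2, listed at 0, shares 100%. However, mt-Atp8 was also listed at 0 and shares 0%.

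Of the other genes in the first 30, mt-Co1, mt-Cytb and mt-Nd1 are mitochondrial, at ranks 6, 8 and 14, and several encode epithelial surface or secreted proteins. Ly6d, a lipid-anchored surface protein of keratinocytes, ranked seventh with 2226, 2473 and 2375 FPKM. Lgals7, galectin-7 of stratified epithelia, was at 1952, 2072 and 2171 FPKM. Krtdap, a secreted protein named for keratinocyte differentiation, was at 2044, 2155 and 1871 FPKM. Perp, a membrane protein of desmosomes and a p63 target, had a mean of 1329 ± 46.4 FPKM. Apoe, a lipid carrier, had a mean of 1432 ± 53.1 FPKM.

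Anxa8, an annexin that binds membranes with calcium, stood at 1295 ± 61.1 FPKM and Calm4, a calmodulin-like protein of skin, at 970 ± 143 FPKM. Mt2, a zinc-binding metallothionein, stood at 1298 ± 47.4 FPKM, but 73.5% of its exon bases lie under a gene on the opposite strand and strand-specific counting is not stated. Calm4 was highest in control replicate 1 and lowest in control replicate 3 (1120, 953 and 837 FPKM). Mt2 and Anxa8 differed little between libraries.

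**Figure D1:**
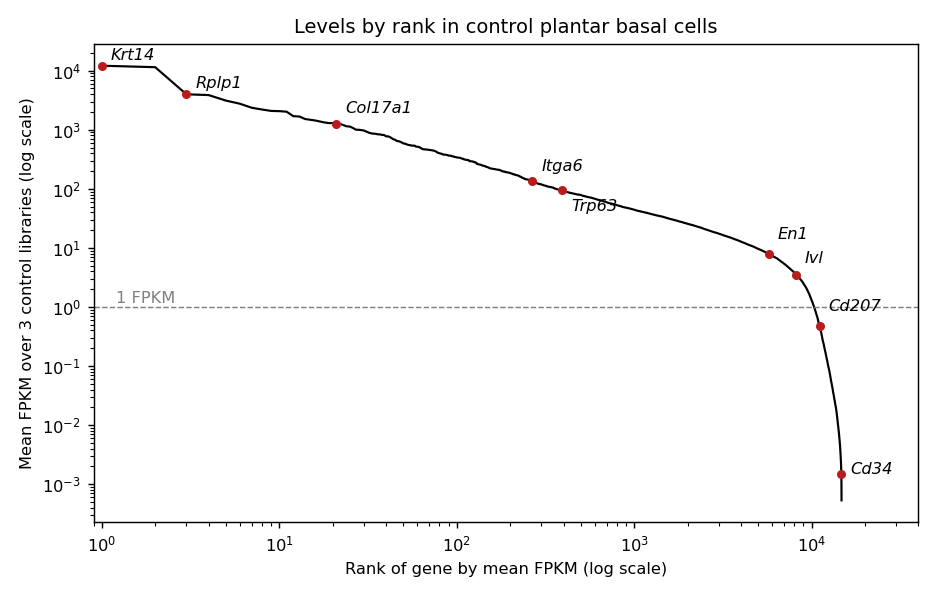
Mean FPKM over the 3 control libraries (log scale) against the rank of each gene with a mean above 0 (log scale). Red points mark named genes: Krt14 is at rank 1, Col17a1 at rank 21, Itga6 at rank 267 and Trp63 at rank 393, En1 is above and Cd207 below the dashed line at 1 FPKM, and Cd34 is near the foot of the curve.

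The order changed when reads were not divided by gene length. By estimated reads, Krt5 led with 2.56 ± 0.36% of reads and Krt14 followed with 2.17 ± 0.28%, because the Krt5 exons add up to 2197 bases and those of Krt14 to 1758. Col17a1, collagen XVII of the hemidesmosome, moved from rank 21 by FPKM to rank 5 by reads, with 0.774 ± 0.057%. Dsp, desmoplakin, which ties keratin filaments to desmosomes, moved from rank 66 to rank 8, with 0.458 ± 0.026%. Long genes for attachment thus took more of the sequenced reads than their FPKM rank shows.

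The basal pair Krt5 and Krt14 stood above the suprabasal Krt1, Krt2 and Krt10, and all 5 were among the first 30 genes. Krt14 exceeded Krt5 by 1.06 ± 0.023 times, with Krt14 the higher in all 3 libraries. Krt10 was at 3805, 4461 and 3328 FPKM (rank 4), and Krt1, its partner, at 1179, 1436 and 1163 FPKM (rank 22, chr15:101845426-101850794). The ratio of Krt5 to Krt1 was 9.25 ± 2.27, from 7.18 in control replicate 2 to 11.7 in control replicate 3. Krt2, a type II keratin of the upper spinous layer that mouse sole epidermis makes, was at 1671, 2021 and 1408 FPKM. Control replicate 3 was highest for Krt5 and Krt14 and lowest for Krt1, Krt2 and Krt10. In bulk libraries, fewer cells of a type and less RNA per cell cannot be told apart.

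Of 50 keratin genes listed, 15 were at 1 FPKM or more in all 3 libraries and 13 were listed at 0 in all 3. The same counts over all 22399 genes were 10032 and 7655. Krt15, a basal keratin often used for quiescent basal cells, was at 771, 836 and 967 FPKM. Krt17, a stress and appendage keratin, was at 230, 204 and 164 FPKM. Krt24 was at 196, 154 and 139 FPKM. Krt15 lay below Krt1, Krt2 and Krt10 in every library, and above Krt17 and Krt24 with ranges apart, while the ranges of Krt17 and Krt24 overlapped.

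Among the keratins of activated and thickened epidermis, Krt6a was at 140, 103 and 115 FPKM and Krt16 at 38.5, 27.2 and 27.6 FPKM. Krt6b, a close copy of Krt6a, was at 1.51 ± 0.279 FPKM, which made Krt6a 79.9 ± 9.45 times higher. Shared stretches came to 45.7% for Krt6a, 50.1% for Krt6b and 37.6% for Krt16, so the split between copies is uncertain. Krt9, the keratin best known from palm and sole epidermis, was low, at 4.04, 1.95 and 0.869 FPKM. Krt80 was at 36.2 ± 2.48 FPKM, and Krt32 at 1.65 ± 0.483 FPKM. Krt12 was at 2.63 ± 0.202 FPKM, with 54.4% of its exon bases under a gene on the opposite strand.

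The simple epithelial keratins were under 1 FPKM in each library: Krt7 had a mean of 0.622, Krt18 of 0.371, Krt19 of 0.151 and Krt8 of 0.147 FPKM. Krt79, a keratin of the hair canal and sebaceous duct, was at 54.1, 65.9 and 20.2 FPKM, and its SD of log2(FPKM + 1), 0.887, was the largest among keratins with a mean over 5 FPKM. Keratins of the hair shaft and inner root sheath stayed close to 0, with Krt25 at a mean of 0.0139 FPKM and Krt35 listed at 0.

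**Figure D2:**
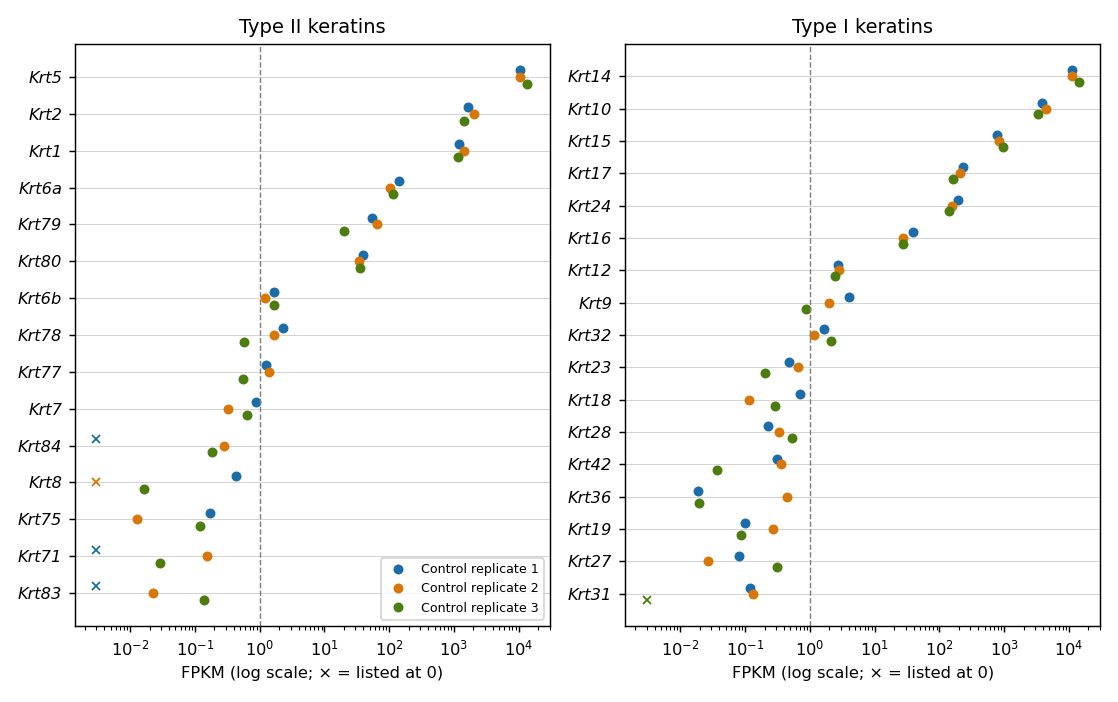
FPKM (log scale) of type II (left) and type I (right) keratins with a mean above 0.05 FPKM, ordered by mean, with 1 point per control library and a cross where a library is listed at 0. Krt5 and Krt14 lead each panel in every library, and the dashed line at 1 FPKM separates the 15 detected keratins from Krt8, Krt18 and Krt19.

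Attachment genes differed widely in level, and among those of hemidesmosomes and anchoring fibrils Col17a1 stood well above the rest. Col17a1 was at 1154, 1261 and 1388 FPKM (chr19:47646344-47692094), and Col7a1, collagen VII of the anchoring fibrils, at 71.5, 100.2 and 99.3 FPKM. Itgb4, the beta chain specific to hemidesmosomes, was at 169, 184 and 206 FPKM. Itgb1, the shared beta chain, was at 120, 119 and 134 FPKM, below Itgb4 in every library with ranges apart. Of the plakins that link integrin to keratin, Plec was at 51.5 ± 4.86 FPKM and Dst, which encodes the BPAG1 proteins, at 32.8 ± 2.67 FPKM.

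Among 18 integrin alpha chains, 6 were at 1 FPKM or more in all 3 libraries, against 10032 of all 22399 genes. Itga6 held 57.3 ± 0.54% of their summed level. Itga3, the alpha chain of the laminin receptor outside hemidesmosomes, was at 70.2, 68.0 and 76.0 FPKM. Itgav and Itga2, the collagen receptor chain, had means of 10.8 ± 0.124 and 10.7 ± 1.04 FPKM and their ranges overlapped. Itga5, the fibronectin receptor chain, was at 4.76 ± 0.492 FPKM.

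The alpha and beta chains of laminin-332, the anchoring laminin of epidermis, were not level. Lamb3 was at 68.5, 77.1 and 95.7 FPKM and Lama3 at 33.9, 30.7 and 34.5 FPKM. Lama5, the alpha chain of other basement membrane laminins, was at 30.3, 36.3 and 35.2 FPKM, and Lama3 was the higher only in control replicate 1. Lamb2 and Lamc1 were at 19.4 ± 1.81 and 18.5 ± 1.47 FPKM. Lama1 and Lama2 had means of 0.00746 and 0.00129 FPKM.

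Collagen IV, the network of the basement membrane, was represented by a minor pair of its chains. Col4a6 was at 17.2, 21.9 and 21.9 FPKM and Col4a5 at 16.7, 16.3 and 18 FPKM, with overlapping ranges. The main chains of most basement membranes were low, with Col4a1 at 0.717, 0.711 and 0.322 FPKM and Col4a2 at 0.911, 0.821 and 0.518 FPKM. Col4a5 was 34.1 ± 18.9 times Col4a1, from 23.0 to 55.9 times in the 3 libraries.

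Of the desmosomal plaque proteins, Dsp was at 431, 487 and 480 FPKM and Pkp1, plakophilin 1, at 431, 501 and 462 FPKM. Dsc3, the desmocollin of the lower layers, was at 306, 319 and 298 FPKM, and Dsc1, that of the upper layers, at 22.3, 28.3 and 15.6 FPKM, a ratio of 14.7 ± 4.01. The desmogleins, their partners, showed no such order: Dsg3 of the lower layers was at 73.4, 58.8 and 70.2 FPKM and Dsg1a of the upper layers at 67.4, 86.5 and 63.7 FPKM. Their ranges overlapped and the leader differed between libraries, and Dsg1a shares 35.0% of its stretches with other transcripts.

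Cdh1, E-cadherin, was at 130, 122 and 134 FPKM and Cdh3, P-cadherin of basal cells, at 47.2, 47.0 and 53.8 FPKM, a ratio of 2.62 ± 0.134. Cdh2, N-cadherin, had a mean of 0.00132 FPKM. Cldn1, the barrier claudin of epidermis, led 23 claudins with 26.2, 25.1 and 20.3 FPKM. Sdc1, a syndecan, was at 280, 307 and 334 FPKM and led its family over Sdc4 at 121 ± 1.8 FPKM.

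Among genes that encode position along the body and limb, levels differed by Hox cluster. Hox genes lie in 4 clusters, and genes of the higher paralog groups are used toward the rear of the body and the tip of the limb. Of 39 Hox genes listed, 18 were at 1 FPKM or more in all 3 libraries and 8 were listed at 0 in all 3. Over all 22399 genes these counts were 10032 and 7655, so the share of Hox genes detected was close to that of all genes. Cluster C held 8 of its 9 genes at 1 FPKM, cluster B 5 of 10, cluster A 4 of 11 and cluster D 1 of 9. Summed levels were 53 ± 1.11 FPKM for C, 50.7 ± 1.91 for A, 12.4 ± 1.01 for B and 2.24 ± 0.36 for D, and the ranges of C and A overlapped while those of B and D lay below.

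Among the 12 genes of groups 10 to 13, the 4 at 1 FPKM or more were all of cluster C. Hoxc10 was at 14.3, 13.1 and 14.8 FPKM, Hoxc11 at 10.9, 11.9 and 12 FPKM, Hoxc12 at 9.10, 9.57 and 10.3 FPKM and Hoxc13, which also controls hair and nail keratins, at 9.41, 6.69 and 5.62 FPKM. Hoxa11, Hoxa13, Hoxb13, Hoxd10, Hoxd11, Hoxd12 and Hoxd13 were listed at 0 in all 3. For Hoxa13, 3 reads in the shallowest library would have given 0.0504 FPKM, and for Hoxd13 0.0501 FPKM. Hoxa10 had a mean of 0.844 FPKM.

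The highest Hox gene was Hoxa7 at 23.6, 24.6 and 26.7 FPKM (20.4% of its exon bases lie under an opposite gene), followed by Hoxa9 at 15.7, 16.7 and 13.9 FPKM. Hoxa9 and Hoxc10 overlapped in range, and so did Hoxc12 and Hoxc13, while Hoxc10, Hoxc11 and Hoxc12 lay apart in that order. The other detected genes were between 1.35 and 3.95 FPKM by mean: Hoxa5, Hoxa4, Hoxb9, Hoxb7, Hoxb2, Hoxb6, Hoxb4, Hoxc5, Hoxc6, Hoxc9, Hoxc4 and Hoxd8. At a minimum of 5 FPKM, 6 Hox genes remained, namely Hoxa7, Hoxa9 and the 4 of groups 10 to 13 in cluster C.

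**Figure D3:**
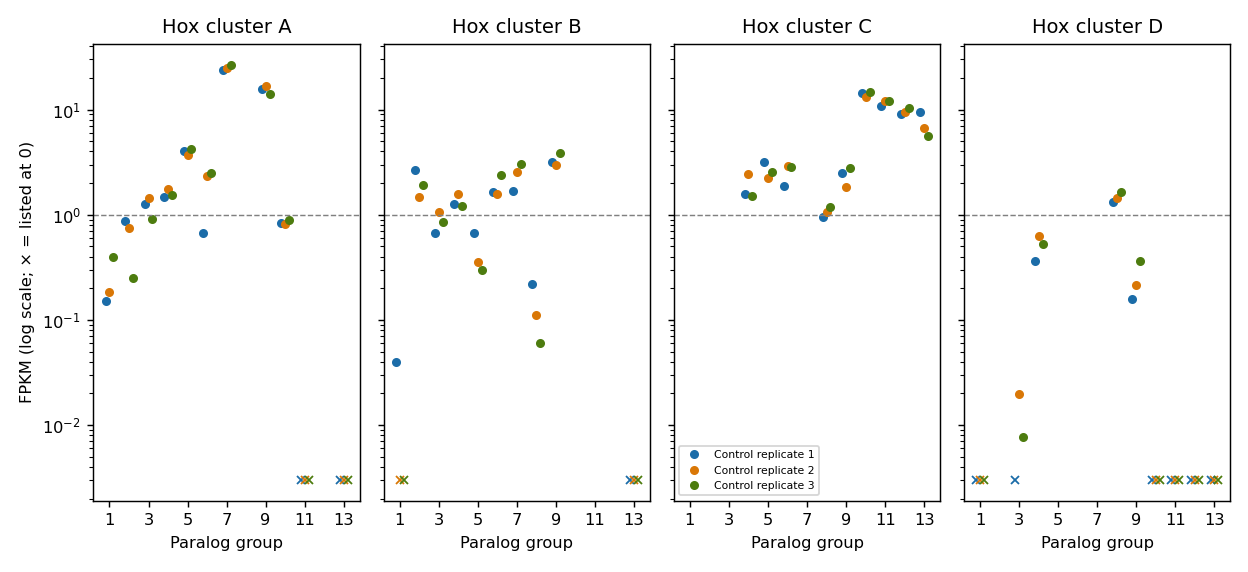
FPKM (log scale) of each listed Hox gene against its paralog group, with 1 panel per cluster, 1 point per control library and a cross where a library is listed at 0. In cluster C groups 10 to 13 stand between 5.62 and 14.8 FPKM, whereas in cluster D these groups are all listed at 0.

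Other patterning factors also differed in level within their families. En1, which sets the ventral side of the limb ectoderm and is needed for footpad sweat glands, was at 7.84, 7.51 and 8.16 FPKM, while En2 was listed at 0. Irx4 led the iroquois factors at 47.6, 61.9 and 60.6 FPKM. Dlx3, which acts in differentiating epidermis, was at 14.4, 12.6 and 14.6 FPKM and Dlx5 at 10.3, 12.1 and 10.2 FPKM. The ranges of Dlx3 and Dlx5 lay apart, but with the longest transcript in place of all exons Dlx5 led.

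Several factors of limb mesenchyme were at or near 0. Tbx4 of the hindlimb was listed at 0, where 3 reads would have given 0.0366 FPKM, Tbx5 of the forelimb had a mean of 0.00219 FPKM, Pitx1 of 0.00772 FPKM and Lmx1b of the dorsal limb of 0.184 FPKM. Tbx3, also an epithelial factor, was the only detected member of its family at 2.97, 3.59 and 3.43 FPKM. Thus En1 and Tbx3 were detected and the mesenchymal members were not.

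Of 187 transcription factors and cofactors on the hand-chosen lists, 113 were at 1 FPKM or more in all 3 libraries. Of the same 187, 14 had a mean of at least 50 FPKM and 28 were listed at 0 in all 3. Over all 22399 genes, 10032 were at 1 FPKM or more in all 3 and 7655 were listed at 0. Klf4, a barrier and differentiation factor, was the highest at 240, 296 and 298 FPKM. The AP-1 subunits Jund (176 ± 21.5), Fos (146 ± 25.5), Junb (127 ± 17.9) and Jun (92.6 ± 19.1 FPKM) were also in the 14, and Jund lies 52.6% under an opposite gene. AP-1 genes include immediate early genes that cell dissociation induces, and the immediate early list varied between libraries, with values given further on.

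Factors of epidermal identity followed. Rarg, the main retinoic acid receptor of epidermis, was at 99.1, 119.7 and 128 FPKM, and its partner Rxra at 54.2, 64.5 and 65.5 FPKM. Trp63 at 93.9 ± 3.87 FPKM stood above Trp53 (35.9 ± 1.57) and Trp73 (12 ± 1.58), with all ranges apart. Tfap2c led the AP-2 factors, which switch on keratin genes, at 85.6, 92.0 and 93.1 FPKM, and Tfap2a followed at 34.6 ± 1.21 FPKM. Sox15 led the SOX factors at 74.6, 80.3 and 96.2 FPKM, ahead of Sox7 at 45.3 ± 1.57 FPKM.

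Myc, which drives basal cells to divide, was at 56.8, 59.8 and 63.2 FPKM, above Mycl at 42.7 ± 3.80 FPKM with ranges apart. Ets2 (59.1 ± 5.25), Irx4 (56.7 ± 7.91) and Klf5 (53.2 ± 0.57 FPKM) completed the 14. Gata3, an epidermal lipid and barrier regulator, was the GATA leader at 23.9, 24.7 and 23.5 FPKM. Cebpa led the C/EBP factors at 48.0 ± 2.83 FPKM. Among grainyhead factors, Grhl2 was at 21.3 ± 2.59 FPKM, above Grhl1 (13.2 ± 2.32) and Grhl3 (10.2 ± 1.77), the last a barrier regulator. Yap1, the growth co-activator, was at 31 ± 1.17 FPKM and Wwtr1 at 13.5 ± 0.388 FPKM.

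Paralog choice, meaning which member of a gene family is highest, was compared in 124 families with at least 2 listed members. In 120 of them some member had a mean of 1 FPKM or more, and 110 of these had the same highest member in all 3 libraries. In 98 the lowest value of the leader was also above the highest value of the runner-up. The median log2 ratio of leader to runner-up was 1.33, on the scale of log2(FPKM + 0.1). It was over 1 in 67 families and over 3 in 20. The leader held over 90% of the family's summed level in 18 families and under 50% in 38.

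Concentration on the leader differed by class. The median share of the leader was 72.4% in 24 metabolic families and 64.6% in 16 adhesion families. In 19 signalling families it was 51.2%, and in 6 families of differentiation genes 42.9%. A leader's share also depends on how many members are listed, and this was not adjusted for. The pyruvate kinases, a metabolic family, list 2 members and the clade B serpins, a differentiation family, list 27. Families are not independent of each other and the lists were chosen by hand, so these shares are descriptions.

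At several steps of glycolysis, the transcripts were mostly of a single form, while enzyme activity was not measured. Pkm, the pyruvate kinase of most tissues, was at 236, 229 and 269 FPKM, and Pklr, that of liver and red cells, was listed at 0, where 3 reads would have given 0.0385 FPKM. Ldha was at 206, 198 and 236 FPKM and Ldhb at 8.82, 7.16 and 8.90 FPKM. Aldoa was at 178, 165 and 188 FPKM and Aldoc at 2.16 ± 0.344 FPKM. Pgk1 was at 49.2 ± 4.15 FPKM and its testis copy Pgk2 was listed at 0. Shared stretches were 25.8% for Pkm, 9.04% for Ldha and 53.9% for Pgk1.

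At other glycolytic steps, transcripts of several forms were detected. Hk1 was at 25.8 ± 2.15 and Hk2 at 7.75 ± 0.383 FPKM. Of the phosphofructokinases, Pfkp was at 25.1 ± 0.979, Pfkl at 17.8 ± 3.38 and Pfkm at 9.38 ± 0.833 FPKM. Slc2a1, the glucose transporter GLUT1, was at 77.3, 74.1 and 87.1 FPKM, 5.64 ± 0.52 times the fructose transporter Slc2a5. The fructose bisphosphatases, which run the reverse step, were under the minimum, with Fbp2 at 0.126, 0.621 and 0.0872 FPKM.

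The sharpest choices among transport and structural proteins were as follows. Aqp3, the water and glycerol channel of basal keratinocytes, was at 719, 759 and 786 FPKM and held 99.3 ± 0.21% of the aquaporin level, with Aqp9 next at 3.88 ± 0.905 FPKM. Tmsb4x, the actin monomer binder thymosin beta 4, was at 928, 832 and 846 FPKM against 20.8 ± 2.12 FPKM for Tmsb10. Tgm3, an epidermal transglutaminase that cross-links envelope proteins, was at 203, 219 and 241 FPKM, whereas Tgm1, the membrane-bound form, was at 3.16, 2.61 and 1.08 FPKM. Piezo1, a channel opened by membrane stretch, was at 6.58, 7.47 and 6.07 FPKM, and Piezo2, the touch channel of sensory cells, had a mean of 0.00239 FPKM from 4 reads in all.

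Within the cytoskeleton, Actb was at 538, 536 and 543 FPKM and Actg1 at 132, 131 and 124 FPKM (37.4% shared stretches), a ratio of 4.17 ± 0.175. Myh9 held 93.8 ± 1.1% of nonmuscle myosin II heavy chain level, at 57.1 ± 5.66 FPKM. Tubb5 (305 ± 47.4) stood above Tubb4b (230 ± 32.2 FPKM) in each library. The alpha tubulins Tuba4a (72.5 ± 5.48) and Tuba1b (65.2 ± 8.05 FPKM) overlapped in range, as did the tropomyosins Tpm4 (85.5 ± 4.31) and Tpm2 (74.5 ± 5.71 FPKM).

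Calcium-binding families had a median leader share of 55.5% over 6 families, close to the 56.7% of 7 cytoskeletal families. S100a11 was at 897, 763 and 846 FPKM, followed by S100a10 (451 ± 30.8), S100a6 (380 ± 31), S100a14 (341 ± 11.8) and S100a16 (214 ± 12.9 FPKM), and S100a11 has 41.1% shared stretches. Of the genes for ubiquitous calmodulin, Calm2 was at 336, 317 and 333 FPKM and Calm3 at 45.6 ± 6.05 FPKM. Anxa8 was above Anxa2 (676 ± 51.3) and Anxa1 (334 ± 13.8 FPKM). Ppp3ca led the catalytic subunits of calcineurin, the calcium-dependent phosphatase, at 23.0 ± 0.952 FPKM.

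**Figure D4:**
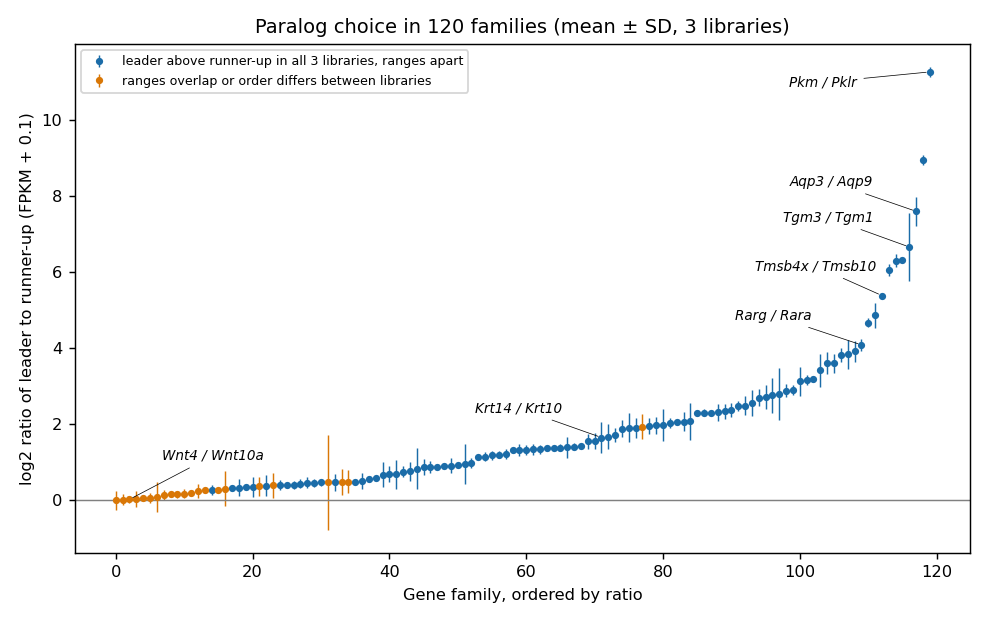
Ratio of the highest to the second member (log2 of FPKM + 0.1) for 120 families ordered by that ratio, as mean ± SD over the 3 control libraries. Blue points are the 98 families with the same leader in all 3 and ranges apart, orange points the other 22, and labelled families run from Wnt4 over Wnt10a near 0 to Pkm over Pklr, a ratio set by the added 0.1 because Pklr is listed at 0.

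In 22 of the 120 families the leader was not set apart, and several are central to this tissue. Besides laminin alpha, collagen IV and desmoglein genes, these included Gpc1 and Gpc4 (29.6 ± 4.48 and 29.3 ± 1.76 FPKM) among glypicans, Stat6 and Stat3 (31.1 ± 1.68 and 29.8 ± 0.341), Cdkn1b and Cdkn1a (23.5 ± 1.67 and 21 ± 2.77), and Wnt4 and Wnt10a (82.7 ± 10.6 and 81.7 ± 15.3 FPKM). When reads were divided by the longest transcript in place of all exons, the leader changed in 8 families. These included the desmogleins, tropomyosins, Dlx factors, STATs, Cip and Kip inhibitors, FGF receptors and BMP ligands, so their order rests on the gene length used.

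Growth factor receptors were detected, and in the FGF, EGF and IGF receptor families the leader was the same in all 3 libraries, with ranges apart. Fgfr3 was at 67.7, 83.0 and 77.6 FPKM and Fgfr2, whose epithelial form receives FGF7 and FGF10 from the dermis, at 51.6, 67.3 and 64.9 FPKM. Fgfr3 was the higher in each library, by 1.2 ± 0.059 times, but the order reversed with the longest transcript. Of these ligands, Fgf10 was listed at 0 in all 3 libraries and Fgf7 had a mean of 0.00986 FPKM. The only FGF gene at 1 FPKM in all 3 libraries was Fgf13, an intracellular member, at 3.84 ± 0.750 FPKM.

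In the EGF receptor family, Erbb2 was at 29.1, 37.8 and 36.5 FPKM, Erbb3 at 27.5, 27.8 and 26.1 FPKM and Egfr at 15.1, 15.2 and 15.2 FPKM. Erbb4 was listed at 0, where 3 reads would have given 0.0101 FPKM. The ligands were lower, with Hbegf at 4.20, 7.17 and 4.16 FPKM and Nrg2 at 4.07 ± 0.691 FPKM overlapping in range. Igf2r (9.39 ± 0.288) was above Igf1r (4.23 ± 0.0733) and Insr (3.01 ± 0.222 FPKM). Among IGF binding proteins, Igfbp2 stood at 375, 413 and 507 FPKM, 5.68 ± 0.98 times Igfbp3.

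Notch signalling pushes basal cells toward the spinous layer. Notch1 led the receptors at 39.0, 51.5 and 49.0 FPKM, 5.06 ± 0.78 times Notch3. Jag2, a ligand held by basal cells, was at 94.2, 107 and 115 FPKM, Jag1 at 29.4, 29.4 and 26.5 FPKM and Dll1 at 16.5, 14.8 and 19.8 FPKM. The order Jag2, Jag1, Dll1 held in each library with ranges apart.

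Wnt ligands made by epidermis maintain basal cells and signal to the dermis. Wnt4 was at 72.0, 82.8 and 93.2 FPKM and Wnt10a at 66.2, 81.9 and 96.9 FPKM, followed by Wnt3 at 33.7, 40 and 43.0 FPKM. Fzd6 led the receptors at 24.7 ± 2.02 FPKM, above Fzd10 (16.7 ± 0.963 FPKM). Of the R-spondin receptors, Lgr6 was at 18.2, 13.9 and 18.8 FPKM and Lgr4 at 13.7, 13 and 11.9 FPKM. Lgr5, a stem cell marker of gut and hair follicle, was at 0.204, 0.162 and 0.0811 FPKM. Tcf7 led the nuclear effectors at 13.5, 10.4 and 12.1 FPKM and Dkk3 the Dickkopf family at 28.6 ± 4.89 FPKM.

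In the TGF-beta and BMP group, the type I receptors Bmpr1a (27 ± 1.05) and Acvr1b (26.8 ± 3.61 FPKM) overlapped in range, above Tgfbr1 (5.56 ± 0.400 FPKM). Bmp7 was at 22.7, 25.5 and 25.9 FPKM and Bmp1, a procollagen protease, at 17.5, 20.9 and 19.9 FPKM. Tgfb1 led the TGF-beta ligands at 6.85 ± 0.381 FPKM. Id3 (45.3 ± 5.20) and Id1 (37.2 ± 3.99 FPKM), targets of BMP signals, overlapped in range. Hedgehog ligands were under the minimum, with Shh listed at 0, and the receptor Ptch1 was at 2.08, 2.07 and 1.64 FPKM.

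Of the vessel growth factors, Vegfb (12.4 ± 0.742) and Vegfd (11.8 ± 1.70 FPKM) overlapped and Vegfa was at 7.6, 9.6 and 6.77 FPKM. Pdgfa was at 13.2 ± 1.99 FPKM. Among immune signals, Cxcl14, a constitutive chemokine of epithelia, was at 135, 105 and 116 FPKM, 7.44 ± 0.87 times Cxcl16. Il33, an alarm cytokine kept in the nucleus, led its family at 13.7, 9.27 and 11.7 FPKM. Toll-like receptors were low, with Tlr5, the flagellin receptor, at 2.23 ± 0.362 FPKM as leader.

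All 25 genes of the cell cycle list were at 1 FPKM or more in all 3 libraries, against 10032 of all 22399 genes. Cdc20, which activates the anaphase complex, was at 77.7, 87.9 and 117 FPKM, Mki67 at 81.8, 85.7 and 101 FPKM and Top2a at 69.1, 70.2 and 84.9 FPKM. Ccnd1 led the D cyclins at 80.2, 87.2 and 94.2 FPKM, above Ccnd2 at 34.7 ± 2.28 FPKM, and Cdk4 was at 51.0 ± 3.37 FPKM against 5.59 ± 0.107 FPKM for Cdk6. The INK4 inhibitors Cdkn2d (39.3 ± 9.85) and Cdkn2c (32.5 ± 6.91 FPKM) overlapped in range.

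A large part of the gene list was absent or close to it. In all 3 libraries 7655 of 22399 genes were listed at 0, and a further 4137 were under 1 FPKM in all 3 without being 0 in all. For comparison with the lists below, 10032 were at 1 FPKM or more in all 3. Of 1137 olfactory receptors, 1126 were listed at 0 in all 3 and 0 reached 1 FPKM in all 3. A value of 0 need not mean that no transcript was present. Of 41 genes that every cell uses, 35 were at 1 FPKM or more, and the 6 below it were mitochondrial genes. The mitochondrial genes mt-Co2, mt-Nd3, mt-Atp6 and mt-Atp8 were listed at 0 in all 3, while mt-Co1 was at 3069, 2788 and 2420 FPKM and mt-Cytb at 2429, 2178 and 1996 FPKM. The share of stretches found in other transcripts was 100% for mt-Co2 and 99.5% for mt-Atp6, but 0% for mt-Atp8.

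Of the cells that live in the epidermis but are not keratinocytes, melanocyte and Merkel cell markers were near 0, and some myeloid markers were detected. For melanocytes, 0 of 8 genes were at 1 FPKM in all 3 libraries, the summed level was 1.0 to 1.1 FPKM, and Mlana and Tyr were listed at 0 among defining genes, with Pmel at a mean of 0.453 and Dct at 0.0197 FPKM. For Merkel cells, 0 of 8 were at 1 FPKM, the sum was 0.295 to 0.716 FPKM, and both defining genes, Krt20 and Atoh1, were listed at 0. For Langerhans and myeloid cells, 5 of 12 were at 1 FPKM and the sum was 33.3 to 45.3 FPKM. Epcam, which keratinocytes can also make, was the highest at 27.3 ± 2.88 FPKM, Cd74 was at 4.51, 8.28 and 2.98 FPKM, H2-Eb1, H2-Ab1 and Cd68 had means of 2.32, 1.79 and 1.63 FPKM, Cd207 at 0.222, 0.790 and 0.400 FPKM, and Ptprc had a mean of 0.0141 FPKM.

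For T cells, 2 of 10 genes were at 1 FPKM and the sum was 58.9 to 74.5 FPKM, nearly all of it from Thy1 at 50.2, 45.9 and 53.3 FPKM and Trbc2 at 13.3, 12.7 and 21.1 FPKM, of which Trbc2 has 44.0% shared stretches. The defining genes Cd3e and Cd3g had means of 0.0111 and 0.0196 FPKM, and Cd8a and Cd3d were listed at 0. Thy1 is a surface glycoprotein that is not limited to T cells.

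Markers of skin appendages were few. Of the hair follicle and sebaceous list, 1 of 14 genes, Krt79, was at 1 FPKM in all 3, and the sum was 22.3 to 68.9 FPKM, with the defining genes Lgr5 and Krt25 at means of 0.149 and 0.0139 FPKM. Of the sweat gland list, 2 of 10 were at 1 FPKM, namely Slc12a2, a chloride cotransporter also used elsewhere, at 17.0 ± 0.577 FPKM and Acta2 at 5.68 ± 1.98 FPKM. The sum was 23.6 to 25.9 FPKM. Its defining genes were under 1 FPKM by mean, with Aqp5 at 1.54, 1.24 and 0.0863 FPKM, Krt18 at 0.371 and Krt8 at 0.147 FPKM.

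Dermal cell types were likewise low in their defining genes. Of the fibroblast list, 2 of 10 were at 1 FPKM, Col6a1 at 22.2 ± 2.03 and Dcn at 5.22 ± 1.09 FPKM, and the sum was 26.5 to 30.0 FPKM. Col1a1, Col1a2 and Pdgfra had means of 0.0580, 0.0342 and 0.0102 FPKM and Lum was listed at 0. Of the endothelial and mural list, 1 of 10, Cspg4, was at 1 FPKM, at 14.2, 18.6 and 21.2 FPKM, the sum was 15.9 to 22.3 FPKM, and Pecam1, Cdh5 and Kdr had means of 0.118, 0.0603 and 0.0119 FPKM. Cspg4 encodes a proteoglycan that basal keratinocytes are also known to make. For adipocytes 0 of 8 genes were at 1 FPKM, with Adipoq and Plin1 listed at 0, the highest being Lep at 0.160 FPKM and the sum 0.0462 to 0.348 FPKM.

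For skeletal muscle 2 of 10 were at 1 FPKM, Mylpf at 3.77 ± 1.88 and Tnni2 at 2.11 ± 0.129 FPKM, with a sum of 4.39 to 8.02 FPKM. Its defining genes Acta1 and Ckm had means of 0.0139 and 0.0194 FPKM and Myh4 was listed at 0. For Schwann cells and nerve 3 of 8 were at 1 FPKM, Mbp at 6.82 ± 1.02, Ngfr at 3.51 ± 1.08 and Prx at 1.29 ± 0.209 FPKM, with a sum of 10.7 to 14.6 FPKM. For red cells 0 of 6 were at 1 FPKM, with a sum of 0 to 0.353 FPKM, Hbb-bs at a mean of 0.0720 and Alas2 at 0.0243 FPKM.

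Markers of the layers above the basal one were the exception. Of 14 spinous and granular genes, 10 were at 1 FPKM or more in all 3 libraries, against 10032 of all 22399 genes. The summed level of the list was 9099, 10500 and 8138 FPKM, most of it from Krt10, Krtdap, Krt2 and Krt1. Envelope and granule genes on the list differed widely in level. Tgm3, given above, was at 203, 219 and 241 FPKM. Lor, loricrin of the cornified envelope, was at 43.2, 34.3 and 13.8 FPKM, Ivl, involucrin, at 4.34, 2.78 and 3.48 FPKM and Flg, filaggrin, at 2.13, 1.1 and 0.425 FPKM. Sprr1b led the small proline-rich envelope proteins at 57.2, 30.6 and 16.7 FPKM. Whether suprabasal cells passed the sort or basal cells carried these transcripts cannot be told apart in these libraries.

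The 3 control libraries were compared with each other gene by gene and by list. Over 7229 genes that averaged 5 FPKM or more, the median coefficient of variation was 7.32% and the median SD of log2(FPKM + 1) was 0.0991, and 28 genes had an SD over 0.5. Over 11465 genes with at least 30 reads on average, 65.5% varied by more than 5 times the variance that counting alone gives, with a median of 8.44 times.

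The 15 genes with the largest SD were all lowest in control replicate 3, where 27.1% of the 7229 genes were lowest, and 10 of them were highest in control replicate 1 and 5 in control replicate 2. Wfdc21, a small secreted whey acidic protein family member, was at 29.6, 13.3 and 5.39 FPKM. Defb6, a defensin, was at 128, 156 and 38.8 FPKM. Sprr1a, an envelope precursor, was at 18.5, 8.03 and 3.38 FPKM, and Asprv1, the protease that processes filaggrin, at 27.4, 19.1 and 8.30 FPKM. Cnfn, cornifelin of the envelope, was at 17.4, 8.02 and 5.08 FPKM.

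The others named were Sprr1b, Lor, Krt79, Arc, Sdr16c6, Slurp2, Cst6, Depp1 and Serpinb12. Of these, Sdr16c6, a short-chain dehydrogenase, was at 9.25, 8.48 and 2.39 FPKM, and Slurp2, a secreted Ly6 protein, at 34.8, 23.4 and 11.1 FPKM. Cst6, a cystatin that limits proteases of the cornified layer, was at 16.2, 18.6 and 6.16 FPKM. Arc, an activity-induced gene, was at 6.51, 16.0 and 3.85 FPKM and Depp1, a FOXO target, at 5.12, 10.8 and 3.04 FPKM, both highest in control replicate 2. Without control replicate 3, 7 of the same 15 were still among the first 15, and their median SD was 0.390, against 0.821 without control replicate 1 and 1.13 without control replicate 2.

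The lists moved with the libraries in the same way. In control replicate 3, 12 of 14 spinous and granular genes were the lowest of the 3 libraries and the median deviation of the list from the mean over libraries was -0.23 on the log2(FPKM + 1) scale, while it was 0.05 in control replicate 1 and 0.21 in control replicate 2. In the same library 11 of 12 basal genes and 24 of 25 cell cycle genes were the highest, with median deviations of 0.13 and 0.18. Over all 10333 genes that averaged 1 FPKM or more these deviations were -0.0048, -0.0033 and 0.0103. Control replicate 3 was the highest library for 42.4% of the 7229 genes.

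The immediate early list, genes such as Fos, Jun and Egr1 that respond within minutes to handling and digestion, was highest in control replicate 2 for 12 of its 14 genes, while 28.6% of the 7229 genes were highest there. Its summed level was 796, 1111 and 880 FPKM and its median deviation -0.19, 0.31 and -0.10. Nr4a1 was at 17.8, 43.5 and 21.4 FPKM, Atf3 at 28.7, 43.3 and 24.6 FPKM and Egr1 at 55.7, 73.9 and 58.0 FPKM. Control replicate 2 was also the shallowest library. The part of the immediate early genes, of depth and of suprabasal markers in the levels given above was not tested.

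**Figure D5:**
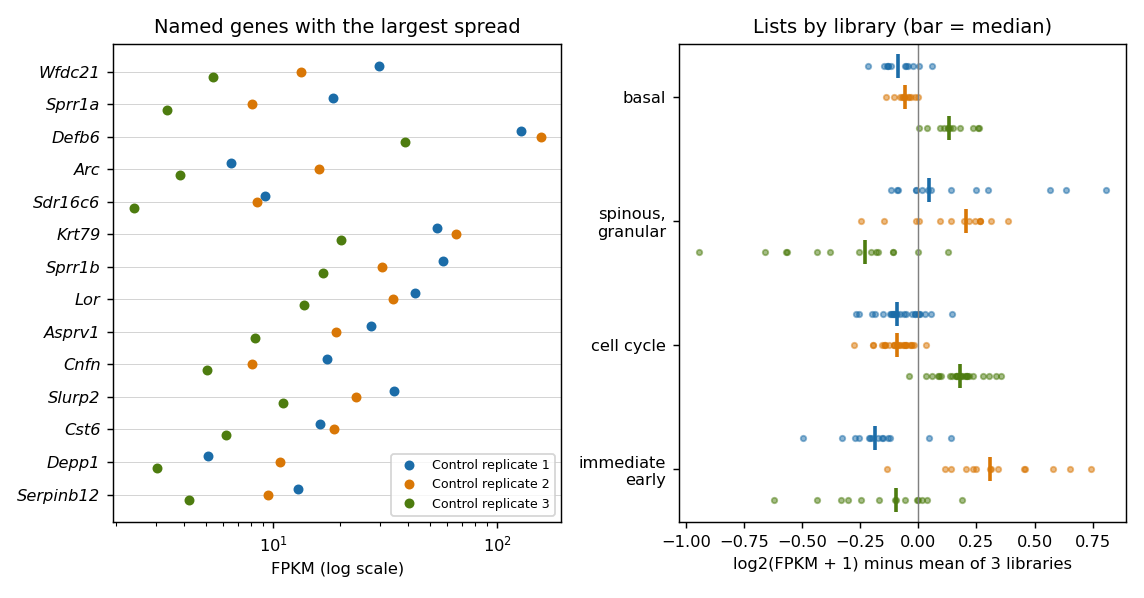
Left, FPKM (log scale) in each control library for the 14 named genes among the 15 with the largest SD of log2(FPKM + 1), all lowest in control replicate 3. Right, log2(FPKM + 1) of each gene of 4 lists minus its mean over the 3 libraries, with a bar at the median: basal and cell cycle genes lie to the right and spinous and granular genes to the left in control replicate 3, and immediate early genes to the right in control replicate 2.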

How the data were processed

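RNA of 3 control libraries was analysed. The authors deposited FPKM per gene in a single table of 9 libraries. The submitters' processing notes name the build mm10 and the tools HTSeq 0.11.2, STAR 2.6.0c, DESeq2 1.30.0 and cutadapt. Which tool made the FPKM, with which gene lengths, and whether counting used strand are not given in the sources used here. Per the labels' protocols, libraries were made with a stranded mRNA kit from RNA with an integrity number over a set minimum.

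Genes were matched to GENCODE M21 on GRCm38, the same build, for 22285 of 22399 rows, and where a symbol occurred on several rows the row with the highest mean was used. Reads were estimated from FPKM and the length of the merged exons: 97.7% to 98.3% of values up to 30 reads were whole (tolerance 0.02). A gene was detected at 1 FPKM in all 3 libraries. Ratios used a pseudocount of 0.1. No test was run, since a single group has no contrast. Shared stretches are the percent of a gene's 50-base stretches found in transcripts of other genes. Promoters were from RefSeq on GRCm38.p6, 250 bases before to 50 after the start. The steps were tested on simulated data. Python 3.11.15, numpy 2.4.6, pandas 2.3.3, scipy 1.17.1 and matplotlib 3.10.9 were used.

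Named were the 30 highest genes, leaders and runners-up of described families, detected keratins and Hox genes, defining and highest genes of the cell type lists, the 15 genes of largest spread with a mean of at least 5 FPKM, and Cd34. Predicted gene models were left out, and some genes that the rule names are not reported here. Other genes were named after their values were seen. Members and lists were chosen with earlier results of these data known. Other minimum levels, pseudocounts, gene lengths and scalings were tried, as was leaving out each library.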

Additional observations from a re-analysis of the deposited data

How the results depend on the processing

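The first 10 genes held 9.50% of estimated reads, against 15.3% of summed FPKM, since reads are not divided by length, and 15.3% without mitochondrial genes. The median log2 ratio of leader to runner-up was 1.14 with a pseudocount of 1 and 1.24 with the longest transcript as length, against 1.33. Of 18 detected Hox genes, 6 were left at a minimum of 5 FPKM and 23 were counted at 0.5 FPKM. Detected genes numbered 10699 at 0.5 FPKM, 6884 at 5 FPKM, 10333 by the mean, 11089 with each library rescaled to a sum of 1e6 and 11838 at 10 reads, against 10032. Families with a leader set apart numbered 91 to 101 under the other settings, against 98. Genes over 5 times counting variance numbered 7542 after rescaling and 6987 at 100 reads, and 5123 were over 10 times it, against 7506. Leaving out each library in turn gave 10097 to 10171 detected genes, a share of 14.9% to 15.5%, 104 to 108 families, a ratio of 1.28 to 1.31, 18 to 20 Hox genes and 5779 to 6397 genes over counting variance. The shared genes among the 15 of largest spread were counted without each library as an alternative chosen after seeing the data. No paired analysis was possible because a single group enters and no test compares groups. FPKM rests on the gene length used, and levels of genes with close copies or an overlapping gene on the opposite strand are uncertain.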

Other observations

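Detoxifying and antioxidant families described here each had the same leader in all 3 libraries, with ranges apart from the runner-up. Prdx1 and Gstm1 led with only 48.4% and 46.5% of their family's summed level. Gpx1, a selenium-dependent glutathione peroxidase, was at 280, 262 and 340 FPKM, ahead of Gpx4, which protects membranes, at 39.1 ± 2.25 FPKM (34.7% shared stretches). Prdx1 led the peroxiredoxins at 194, 173 and 181 FPKM, and Prdx2 followed at 68.7 ± 7.34 FPKM. Sod1, the cytosolic superoxide dismutase, was at 32 ± 1.98 FPKM and Sod2, the mitochondrial form, at 6.46 ± 0.117 FPKM. Of the alpha, mu and pi glutathione transferases, the only classes listed, the mu class had the highest summed level. Its leader Gstm1 was at 105, 105 and 106 FPKM and Gstm2 at 73.5, 73.2 and 81.3 FPKM. Gsta4 of the alpha class was at 15 ± 1.63 FPKM and Gstp1 of the pi class at 15.8 ± 3.30 FPKM.

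Proteases of the cornified layer and their inhibitors were present in these basal libraries. Klk8 led the kallikreins at 77.0, 76.4 and 75.2 FPKM, with Klk11 next at 42.3, 50.8 and 42.6 FPKM. Klk7, which cuts corneodesmosomes, was at 16.0, 10.7 and 5.26 FPKM, lowest in control replicate 3, while Klk8 differed little between libraries. Of the clade B serpins, Serpinb5, maspin, was at 206, 199 and 182 FPKM and Serpinb2, a plasminogen activator inhibitor, at 167, 136 and 140 FPKM. Among lipid enzymes of the barrier, Elovl1 was at 33.0, 37.7 and 32.9 FPKM and Elovl4, which makes the longest acyl chains, at 23.8, 25.1 and 12 FPKM. Cers5 led the ceramide synthases at 24.9 ± 1.6 FPKM, and Cers3, the form tied to the epidermal barrier, followed at 6.41 ± 0.560 FPKM. The metallothionein Mt4 of stratified epithelia was at 360, 389 and 294 FPKM, above Mt1 at 262, 243 and 278 FPKM in each library.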
